A study of Rattus norvegicus with 60 samples.

Results

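Chemokines are small secreted proteins that direct the movement of leukocytes by binding G protein-coupled receptors on them, and atypical receptors (the Ackr family) bind chemokines and take them up without the usual G protein signal. In the liver, resident macrophages (Kupffer cells), sinusoidal endothelium, stellate cells, lymphocytes and hepatocytes can all release them, and inflammatory factors of the NF-kappaB and interferon pathways are known inducers of many ligands. The genes described here are those whose symbol on the array begins with a chemokine ligand or chemokine receptor stem followed by a number (Ccl, Cxcl, Cx3cl, Xcl, Ccr, Cxcr, Cx3cr, Xcr or Ackr). The rule found 44 genes of the 14217 genes with a symbol of their own, 28 ligands and 16 receptors, and each gene was represented by its probe set with the highest mean over all arrays.

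The study asked how hepatocytes (HC) and mesenchymal cells (MC) of the liver of Wistar rats, 8 weeks old, respond to phenobarbital (PB), an inducer of drug-metabolising enzymes through the receptor CAR, and to cyproterone acetate (CPA), a steroidal antiandrogen and progestin. It used 60 Affymetrix Rat Genome 230 2.0 arrays, 30 of each fraction, and the values are log2 expression. Each fraction held 3 arrays of PB (50 mg/kg) at 24 h after a single gavage and 3 at 14 d in drinking water, with 3 water arrays at each time, and 3 arrays of CPA (100 mg/kg per day by gavage) at 24 h and 3 at 6 d. The corn oil controls of CPA (10 ml/kg) numbered 5 at 24 h and 3 at 6 d, and a further 4 corn oil arrays at 24 h carry the code CO_Co. PB and water animals were labelled male, apart from replicate 3 at 24 h, and CPA and corn oil animals female, so sex, vehicle and compound cannot be told apart between the PB and CPA arms. Neither the cell types of MC nor the origin of replicates (1 animal or several) is given by the labels, so p-values measure the spread between arrays.

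Some arrays stood apart. The 4 arrays of replicate 3 of water and PB at 24 h were labelled female, but their level of the Y-linked gene Eif2s3y (6.94 to 7.26) lay within the range of the 20 arrays labelled male (5.88 to 7.41) and above the other 36 female arrays (0.71 to 1.43), so sex was left out of the fits. MC CPA 6 d replicates 1 and 2 differed by an SD of 0.17 over all probe sets, and MC water 24 h replicates 1 and 2 by 0.18, where the next closest pair of a group in MC differed by 0.32. Each of these pairs was counted as 2 arrays, and the members named in MC at 6 d of CPA and at 24 h of PB are given also with the pair averaged to 1. The fractions carried the markers of their labels: the mean of 17 hepatocyte markers was 11.76 ± 0.10 (SD, n = 18 vehicle arrays) in HC and 9.05 ± 0.97 in MC, and the mean of 11 Kupffer cell and macrophage markers was 4.50 ± 0.74 in HC and 10.45 ± 0.40 in MC. Endothelial, stellate, T and NK cell, B cell and neutrophil marker means were higher in MC as well, so MC carried markers of several cell types, hepatocytes included.

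In vehicle animals most members differed between the fractions, as did most genes, and nearly all large differences of members were higher in MC. Over the 18 vehicle arrays of each, 18 members were higher in HC and 18 higher in MC by limma at an adjusted p under 0.05, and 8 did not pass. The fit took HC and MC arrays of the same number as independent. Of all genes, 84.3% passed in this comparison, 49.5% higher in HC and 34.8% higher in MC, so the share of members that passed (81.8%) was near that of all genes. The sizes differed between the directions. The 18 members higher in MC had a median difference of -4.29 (HC minus MC, log2), and 15 of them differed by at least 1. The 18 members higher in HC had a median of 0.44, and only Ccl9 and Cxcl11 exceeded 1. HC and MC arrays did not overlap for 13 members higher in MC (of all genes, 13.6% stood so) and for 1 member higher in HC (8.38% of all genes).

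**Figure D1:**
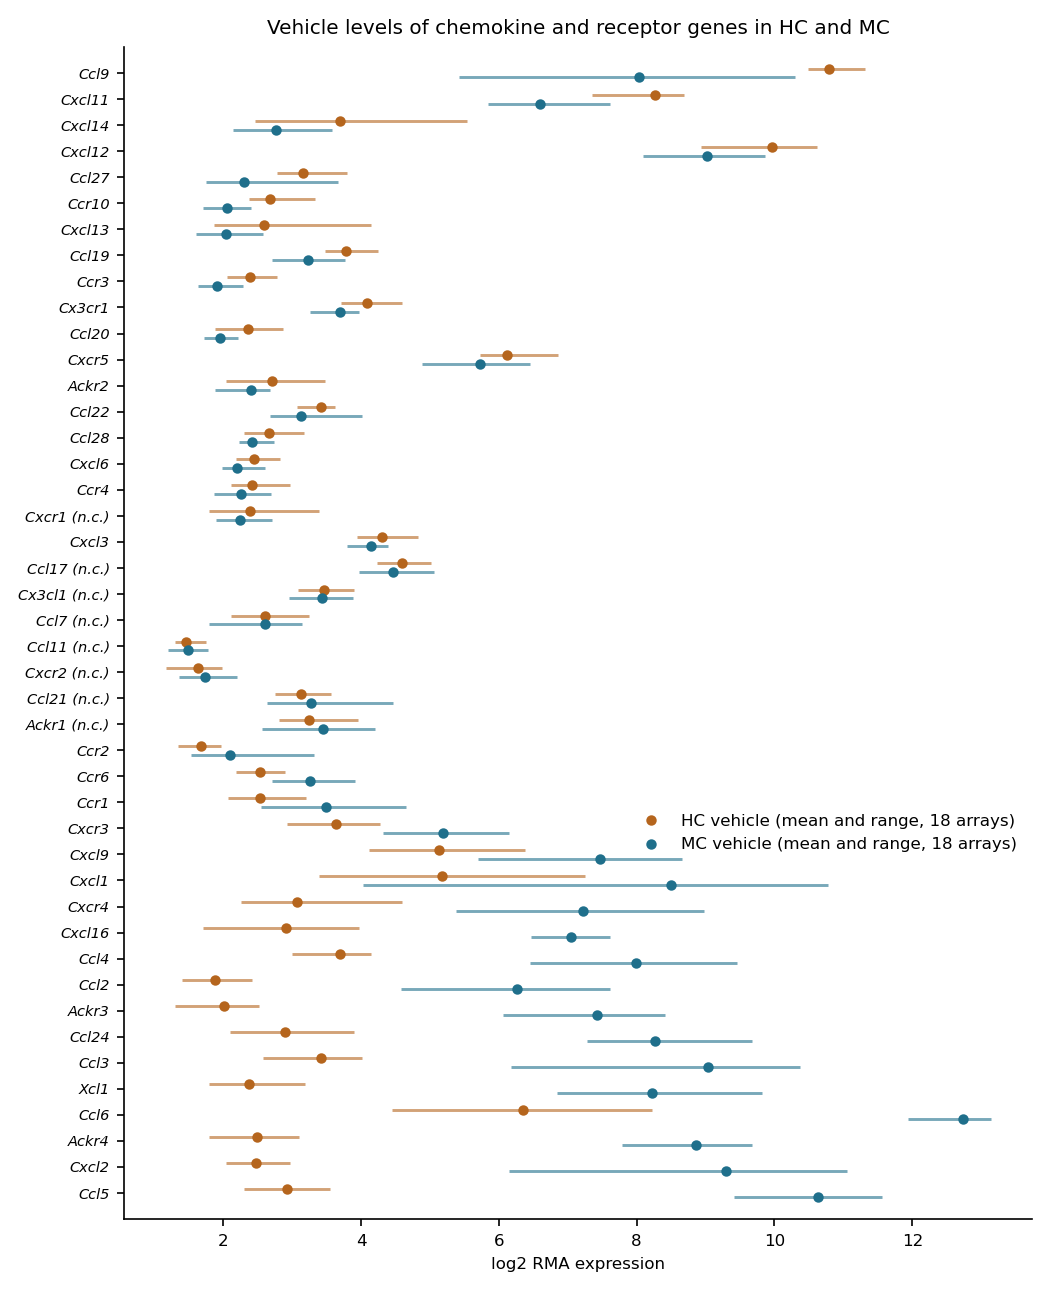
Levels of the 44 genes in vehicle arrays on the log2 scale. Points are means and lines the full range over 18 HC arrays (brown) and 18 MC arrays (blue), genes are ordered by the fitted difference HC minus MC, and "n.c." marks the 8 genes that did not pass; Ccl5 at the bottom stood at 2.93 in HC and 10.63 in MC, Ccl9 at the top at 10.79 and 8.03.

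Most ligands with a large difference were those of MC. Ccl5 (RANTES), which attracts T cells and monocytes, had the largest difference: its HC arrays ran from 2.30 to 3.55 (median 2.98) and its MC arrays from 9.41 to 11.56 (median 10.69), a fitted difference of -7.66 (SE 0.16, adjusted p = 5.41e-38). Cxcl2, a neutrophil attractant, stood at 2.04 to 2.97 in HC (median 2.47) and 6.15 to 11.06 in MC (median 9.41) (-6.71, SE 0.27). Its MC values spanned a wide range, and the highest HC array still lay below the lowest MC array. Ccl6, a myeloid CC ligand, stood at 4.45 to 8.22 in HC (median 6.49) and 11.93 to 13.14 in MC (median 12.84) (-6.38, SE 0.30). Xcl1 (lymphotactin), a ligand made by cytotoxic lymphocytes, stood at 1.80 to 3.19 in HC (median 2.33) and 6.85 to 9.82 in MC (median 8.32) (-5.80, SE 0.20). The macrophage inflammatory proteins Ccl3 (-5.53) and Ccl4 (-4.25), the eosinophil attractant Ccl24 (-5.40), the monocyte attractant Ccl2 (-4.33) and the transmembrane ligand Cxcl16 (-4.18) did not overlap between the fractions either. The neutrophil attractant Cxcl1 (-3.17) and the interferon-induced Cxcl9 (-2.25) were higher in MC with overlapping arrays.

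Of the 16 receptors, 7 were higher in MC. Ackr4, a scavenger of Ccl19, Ccl21 and Ccl25, stood at 1.79 to 3.10 in HC (median 2.47) and 7.79 to 9.67 in MC (median 8.92) (-6.40, SE 0.15, adjusted p = 1.23e-36). Ackr3, a scavenger of Cxcl12 and Cxcl11, stood at 1.30 to 2.52 and 6.07 to 8.41 (-5.36, SE 0.19), and Cxcr4, the signalling receptor of Cxcl12, at 2.25 to 4.60 and 5.37 to 8.97 (-4.09, SE 0.22). Cxcr3, the receptor of Cxcl9 and Cxcl11 on T and NK cells, differed less (3.64 ± 0.36 in HC and 5.19 ± 0.49 in MC, -1.51). The leukocyte receptors Ccr1 (-0.96), Ccr6 (-0.73) and Ccr2 (-0.44) were higher in MC by under 1, and their MC means were between 2.10 and 3.49.

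Ccl9, a CC ligand that binds Ccr1, was the member without overlap on the HC side. Its 18 HC vehicle arrays ran from 10.49 to 11.31 (median 10.78) and its MC arrays from 5.42 to 10.30 (median 8.08), a difference of 2.70 (SE 0.23, adjusted p = 4.76e-15). Cxcl11, a ligand of Cxcr3, stood at 8.27 ± 0.41 in HC and 6.60 ± 0.52 in MC (1.60, SE 0.14). Cxcl12, the ligand of Cxcr4 and Ackr3, was high in both fractions, at 9.96 ± 0.63 in HC and 9.02 ± 0.54 in MC (0.90, SE 0.16). Cxcl12 in HC also differed between the control groups, with corn oil group means of 10.31 to 10.48 and water means of 9.07 and 9.18; sex and vehicle cannot be told apart there. Cxcl14 (0.97), an epithelial ligand, and Ccl27 (0.80) followed, with HC means of 3.70 and 3.16. The remaining 13 members higher in HC differed by 0.14 to 0.62, namely Cxcl13, Ccl19, Ccl20, Ccl22, Ccl28, Cxcl3 and Cxcl6 among ligands and Ccr10, Ccr3, Cx3cr1, Cxcr5, Ackr2 and Ccr4 among receptors. Ccl22 depended on its probe set: the dimmer one differed by -0.29, higher in MC (adjusted p = 0.00289 over all probe sets), where the one used differed by 0.29. All of these members but Cxcr5 (6.12 in HC, 5.73 in MC) had HC means under 5. The 8 members that did not pass, Cxcr1, Cxcr2, Ccl17, Cx3cl1, Ccl7, Ccl11, Ccl21 and Ackr1, also had means under 5 in both fractions. A level is that of its probe set, so the order of levels between genes also depends on the probes.

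Members with opposite fractions lie side by side in the genome. In the RefSeq annotation of rat assembly GRCr8, Ccl5, Ccl9, Ccl6, Ccl3 and Ccl4 follow each other on chromosome 10 with no other protein-coding gene between them. Ccl9, higher in HC by 2.70, sits between Ccl5 and Ccl6, higher in MC by 7.66 and 6.38. Ccl2, Ccl7 and Ccl11 lie together elsewhere on chromosome 10, and of these 3 Ccl2 passed the test between fractions and the others did not. On chromosome 14, Cxcl11 (higher in HC) and Cxcl9 (higher in MC) lie close to each other, and Cxcl2 and Cxcl1 are adjacent. In all, 10 members lie on chromosome 10, 8 on chromosome 8 and 7 on chromosome 14.

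The sequences before the start are shown for these neighbours and for other members described further on. RefSeq promoter sequences matched 34 of the 44 members. The 250 bases before the start were searched on both strands for the kappaB-type motif of GGG, any 3 bases and TTCC, a form of the element that NF-kappaB proteins bind. It was present in 9 of the 34 members (26.5%), counted per gene, and in 4.53% of all 33469 promoters of that length, counted per promoter. The shares of members and of promoters here are therefore not on a like basis. The 9 were Ccl6, Ccl7, Ccl9, Ccl20, Ccr3, Cxcl1, Cxcl2, Cxcl6 and Cxcl11, so members of both fractions carried it, and Cxcl1, Cxcl2 and Cxcl6 are near relatives whose sequences are not independent. An interferon-type motif of GAAA, any 2 bases and GAAA was present in 1 of 34 members (Ccl19) and in 3.41% of all promoters. The sequences below read 5′ to 3′ towards the start, capitals mark each kappaB match on either strand, and bases inside an annotated gene were left off, which leaves 199 bases for Ccl9. The neighbours of opposite fraction on chromosome 10 were taken from chr10:68868929-68869127 (minus strand) for Ccl9 and chr10:68883367-68883616 (minus strand) for Ccl6.
Ccl9: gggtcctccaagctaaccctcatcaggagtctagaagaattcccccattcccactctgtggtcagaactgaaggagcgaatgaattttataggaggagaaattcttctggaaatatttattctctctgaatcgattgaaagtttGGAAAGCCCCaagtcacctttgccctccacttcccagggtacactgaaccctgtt
Ccl6: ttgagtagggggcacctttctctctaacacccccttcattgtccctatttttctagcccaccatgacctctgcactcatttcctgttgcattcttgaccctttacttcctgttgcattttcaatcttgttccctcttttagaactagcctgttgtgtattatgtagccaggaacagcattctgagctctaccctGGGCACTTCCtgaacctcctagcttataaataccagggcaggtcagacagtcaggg
The Ccl6 match lies 56 to 47 bases before the start. The Ccl9 match lies 106 to 97 bases before the end of its searched window, which reaches into the annotated gene. Fewer bases therefore follow the match in the Ccl9 sequence shown, and the positions of Ccl9 and Ccl6 are not on a like basis. The pair on chromosome 14 came from chr14:15973478-15973727 (plus strand) for Cxcl11 and chr14:16006916-16007165 (plus strand) for Cxcl9, which rose in HC under CPA.
Cxcl11: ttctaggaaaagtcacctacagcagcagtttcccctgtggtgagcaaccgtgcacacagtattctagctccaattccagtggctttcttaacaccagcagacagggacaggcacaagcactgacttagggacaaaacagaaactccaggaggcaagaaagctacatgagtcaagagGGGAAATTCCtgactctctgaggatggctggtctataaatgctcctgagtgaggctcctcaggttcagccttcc
Cxcl9: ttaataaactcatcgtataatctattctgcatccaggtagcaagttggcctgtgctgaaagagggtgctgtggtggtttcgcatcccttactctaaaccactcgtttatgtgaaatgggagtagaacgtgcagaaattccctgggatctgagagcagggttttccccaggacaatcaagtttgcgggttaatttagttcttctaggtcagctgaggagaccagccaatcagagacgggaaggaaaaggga
The letters were found in Cxcl11, 74 to 65 bases before the start, and not in this window of Cxcl9. Cxcl1 at chr14:17479322-17479571 (minus strand) and Cxcl2 at chr14:17467256-17467505 (minus strand) are shown because both had 2 low arrays in MC water at 14 d.
Cxcl1: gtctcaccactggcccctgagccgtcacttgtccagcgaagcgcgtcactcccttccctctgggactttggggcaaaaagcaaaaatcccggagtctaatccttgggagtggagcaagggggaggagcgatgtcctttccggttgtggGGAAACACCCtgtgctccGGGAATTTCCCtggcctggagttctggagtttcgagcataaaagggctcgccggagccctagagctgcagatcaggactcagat
Cxcl2: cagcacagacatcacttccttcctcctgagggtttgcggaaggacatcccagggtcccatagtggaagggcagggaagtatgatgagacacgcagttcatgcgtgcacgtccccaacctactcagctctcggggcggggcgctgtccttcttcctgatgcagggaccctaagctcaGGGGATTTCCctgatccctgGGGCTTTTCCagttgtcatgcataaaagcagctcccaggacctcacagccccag
Cxcl1 holds 3 matches, of which 2 overlap on opposite strands, and Cxcl2 holds 2. Ccl7 at chr10:67513845-67514094 (plus strand) and Cxcl12 at chr4:152060531-152060780 (plus strand) are the members that rose and fell in MC after 6 d of CPA.
Ccl7: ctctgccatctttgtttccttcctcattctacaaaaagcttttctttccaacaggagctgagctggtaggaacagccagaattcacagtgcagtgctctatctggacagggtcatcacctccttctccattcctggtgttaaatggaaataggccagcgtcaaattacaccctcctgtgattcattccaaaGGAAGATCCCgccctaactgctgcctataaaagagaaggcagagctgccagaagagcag
Cxcl12: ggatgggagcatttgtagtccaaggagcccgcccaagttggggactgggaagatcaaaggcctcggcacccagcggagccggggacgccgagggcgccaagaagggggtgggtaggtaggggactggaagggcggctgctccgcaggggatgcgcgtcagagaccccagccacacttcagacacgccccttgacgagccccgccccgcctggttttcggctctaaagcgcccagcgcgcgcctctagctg
Ccl7 holds 1 match, 59 to 50 bases before the start, and Cxcl12, whose window is 67.6% G and C, holds none. A match is a description of letters and was not tested as a binding site.

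Cxcl12 fell in hepatocytes at both times of CPA. Cxcl12 holds Cxcr4-bearing leukocytes and progenitors in place in many tissues. At 24 h the 5 corn oil arrays stood at 10.61, 10.58, 10.34, 10.47 and 10.37 and the 3 CPA arrays at 9.44, 8.06 and 8.66. Every CPA array lay below every control, and Cxcl12 fell by 1.76 (SE 0.21, adjusted p = 2.38e-07, 3.38-fold). At 6 d the controls stood at 10.41, 10.46 and 10.10 and the CPA arrays at 8.01, 7.22 and 7.55, a fall of 2.73 (SE 0.23, adjusted p = 1.89e-09, 6.63-fold). The other 2 probe sets of Cxcl12 fell too, by limma over all probe sets. The second brightest fell by 2.53 at 24 h and 2.61 at 6 d (adjusted p = 7.31e-09 and 3.23e-08), and the dimmest by 2.31 and 2.33 (adjusted p = 0.000365 and 0.00164). The fall was larger at 6 d than at 24 h in the first probe set (difference of effects -0.97, SE 0.31, adjusted p = 0.0338), a call lost without any 1 of 7 of the 14 arrays (range -1.30 to -0.61), and in the other probe sets the effects differed by -0.08 and -0.03 (adjusted p = 0.946 and 0.992).

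At 24 h, 6 of 44 members passed in HC under CPA (13.6% of members, 34.2% of all genes), 4 lower (11.7% of all genes) and 2 higher (22.5%), and the median change of members was -0.17 against -0.01 over all genes. Ccl27, a lymphocyte attractant, fell by 0.64 (adjusted p = 0.00603), from 2.78 to 3.36 in controls to 2.17 to 2.58 under CPA. Cxcr5, the receptor of Cxcl13, fell by 0.52 (adjusted p = 0.0105), from 5.92 to 6.24 to 5.41 to 5.61. Neither gene overlapped between groups. Ackr4 fell by 0.76 at levels near the bottom of the scale (1.79 to 3.10 in controls and 1.53 to 1.91 under CPA, overlapping, adjusted p = 0.0271), and the call was lost without any 1 of 4 arrays (corn oil replicates 1 and 3, CPA replicates 1 and 2). The calls of Ccl27 and Cxcr5 were each lost without 1 array, CPA replicate 1 and replicate 2, and without CPA replicate 1 only 3 members passed.

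Cxcl9, induced by interferon-gamma and a ligand of Cxcr3, rose in hepatocytes at both times of CPA. At 24 h the controls stood at 5.20, 4.55, 5.19, 4.47 and 4.22 and the CPA arrays at 5.82, 5.44 and 5.80, a rise of 0.96 (SE 0.29, adjusted p = 0.00996). At 6 d the controls stood at 5.62, 4.90 and 5.52 and the CPA arrays at 6.99, 7.09 and 6.91, a rise of 1.65 (SE 0.32, adjusted p = 0.000307, 3.15-fold). No array overlapped with these controls at either time. The CO_Co corn oil arrays of HC at 24 h stood at 5.06, 4.73, 5.55 and 5.35, so the one at 5.55 lay above the CPA array at 5.44. Its second probe set rose by 1.56 at 6 d (adjusted p = 0.00986) and stood at 0.85 at 24 h (adjusted p = 0.113). Cxcl11, which lies close to it, stood at -0.25 at 6 d (adjusted p = 0.13).

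At 6 d, 8 of 44 members passed in HC (18.2% of members, 24.2% of all genes), 3 higher (15% of all genes) and 5 lower (9.29%), with a median of -0.03 against -0.01 over all genes. Ccl2, a monocyte attractant, stood at 1.65, 1.42 and 1.63 in corn oil and at 2.98, 2.56 and 2.58 under CPA, a rise of 1.14 (SE 0.18, adjusted p = 3.75e-05). All 6 values were low, against an MC vehicle mean of 6.26. At 24 h Ccl2 stood at 1.63 to 1.84 under CPA and 1.83 to 2.19 in corn oil, and the effects at 6 d and 24 h differed by 1.43 (SE 0.25, adjusted p = 0.000251). Of all genes, 14.5% passed this test between times in HC, and 3 members did, Ccl2, Cxcl12 and Cxcl14. Ccl9 rose by 0.66 (adjusted p = 2.92e-05) from 10.77, 10.70 and 10.78 to 11.40, 11.42 and 11.43, after a rise of 0.30 at 24 h (adjusted p = 0.0154) whose arrays overlapped and whose call was lost with both corn oil groups as control (0.21, adjusted p = 0.0592), with only the arrays of the comparison in the fit (adjusted p = 0.0747) and without CPA replicate 1 or 2.

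Cxcl14 showed the largest fall after Cxcl12. Its 6 d controls stood at 4.20, 5.00 and 5.54 and its CPA arrays at 2.60, 2.38 and 2.83, a fall of 2.31 (SE 0.40, adjusted p = 9.58e-05, 4.95-fold). The 24 h controls were lower than those of 6 d (3.10 to 4.06), and CPA at 24 h stood among them (3.55 to 3.61), and the effect at 6 d differed from that at 24 h by -2.40 (SE 0.54, adjusted p = 0.00327). The second probe set of Cxcl14, dimmer, stood at 0.02 at 6 d (adjusted p = 0.975). Cxcl13, a B cell attractant, fell by 1.24 (adjusted p = 0.0202), but its controls spread from 2.13 to 4.14 and overlapped the CPA arrays (1.85 to 2.36). Ccr10, the receptor of Ccl27 and Ccl28, fell by 0.64 (adjusted p = 0.0145) and Ccl17, a ligand of Ccr4, by 0.52 (adjusted p = 0.0437), both at low levels. The calls of Cxcl13, Ccl17 and Ccr10 were lost without any 1 of 4, 4 and 2 of the 6 arrays (Cxcl13: corn oil replicates 2 and 3, CPA 2 and 3; Ccl17: corn oil 1 and 3, CPA 1 and 3; Ccr10: corn oil 3, CPA 3), and without corn oil replicate 3 only 5 members passed. With only the arrays of the comparison in the fit, Cxcl13 and Ccl17 did not pass (adjusted p = 0.0683 and 0.0739).

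**Figure D2:**
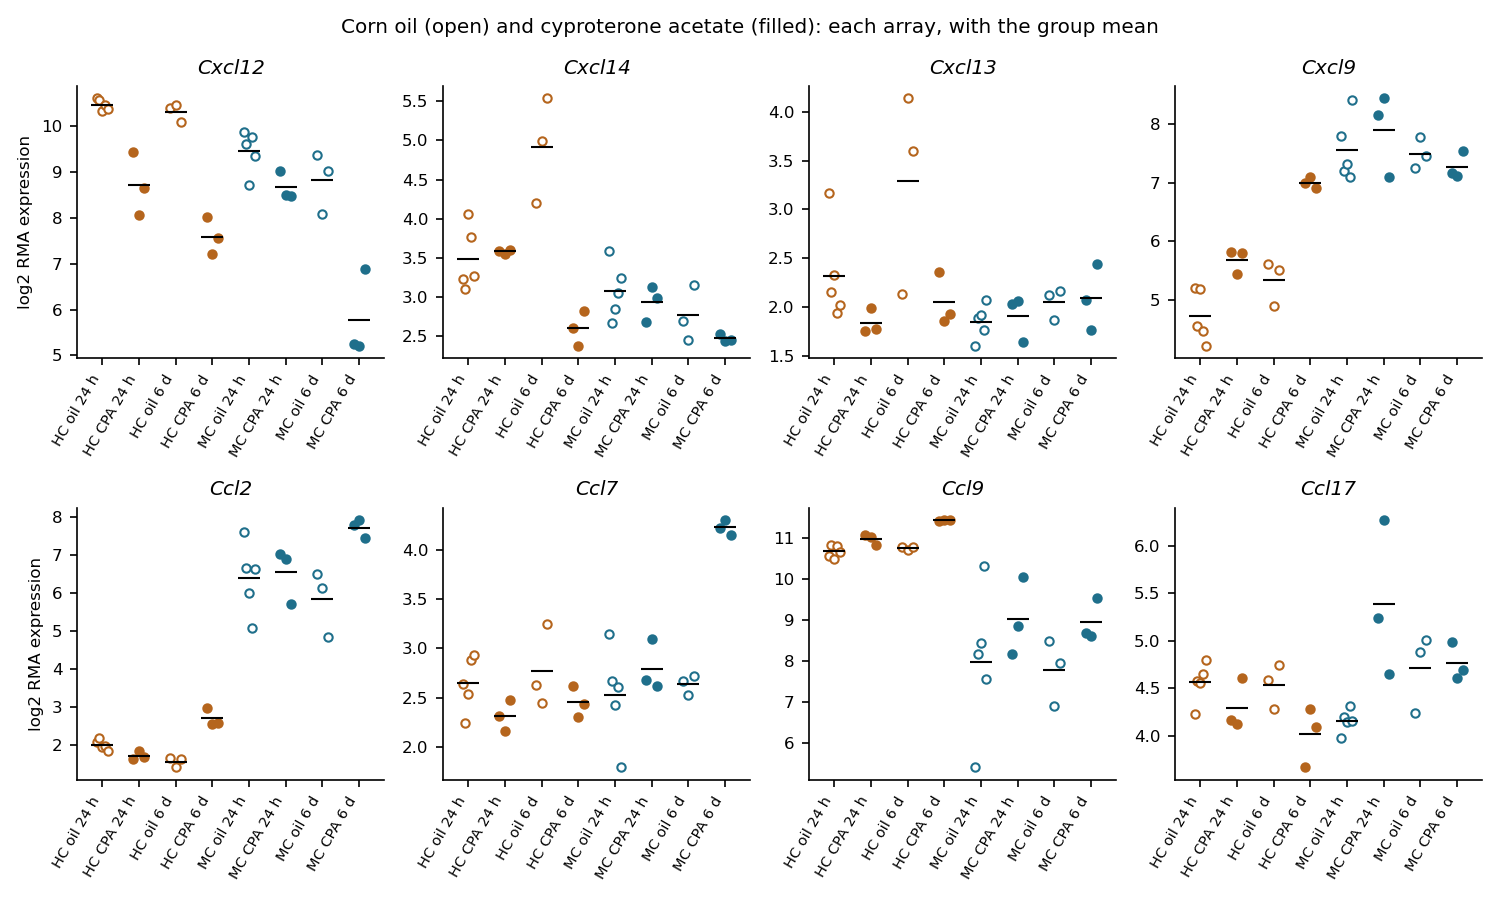
Single-array log2 levels of 8 members in corn oil (open) and CPA (filled) arrays of HC (brown) and MC (blue), with the group mean as a line; each panel has its own vertical scale. Cxcl12 is lower under CPA in HC at both times and in MC at 6 d, and Ccl7 in the MC CPA 6 d group stands at 4.15 to 4.30, above the 3 corn oil arrays of its time.

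Some markers of several cell types passed in HC in the same comparisons. Among all genes, 34.2% passed at 24 h (22.5% higher and 11.7% lower) and 24.2% at 6 d (15% and 9.29%). Of 17 hepatocyte markers, 8 fell and 1 rose at 24 h and 9 fell and 1 rose at 6 d, and their mean was 11.46 ± 0.09 under CPA and 11.77 ± 0.07 in corn oil at 24 h, and 11.38 ± 0.10 and 11.78 ± 0.07 at 6 d. Of 6 cholangiocyte markers, Epcam rose at 24 h (2.09) and at 6 d (1.83) and Tff3 at 6 d (1.76), and the mean at 6 d was 3.85 ± 0.18 under CPA and 3.13 ± 0.01 in corn oil. The macrophage marker mean was 6.41 ± 0.16 (n = 3) under CPA at 6 d and 5.13 ± 0.18 in corn oil at 6 d; at 24 h the means were 4.31 under CPA and 4.63 in corn oil. Of the 11 macrophage markers, 2 rose at 6 d (Cybb by 1.84 and Adgre1 by 1.75) and Lyz2 fell by 0.41, near the share of all genes. The median change of the 11 was 1.34. Ccl6, the bright member of MC, stood at 8.42, 9.03 and 8.83 in HC under CPA and at 7.29, 7.60 and 6.84 in corn oil, a difference of 1.52 that did not pass (adjusted p = 0.274), though it did with only the arrays of the comparison in the fit (adjusted p = 0.0015). With the macrophage marker mean as a covariate, chosen after seeing the data, Ccl6 stood at -0.55, while Cxcl12, Cxcl14, Cxcl9, Ccl2, Ccl9, Cxcl13 and Ccr10 kept their calls and Ccl17 did not (adjusted p = 0.0735). That mean ran from 6.22 to 6.51 under CPA at 6 d and from 4.94 to 5.30 in corn oil, without overlap. The covariate therefore cannot tell macrophage RNA from an effect of CPA for any of these members. The part of the hepatocyte and cholangiocyte markers in the HC results was not tested. In these bulk samples more cells of a type and more RNA per cell cannot be told apart.

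**Figure D3:**
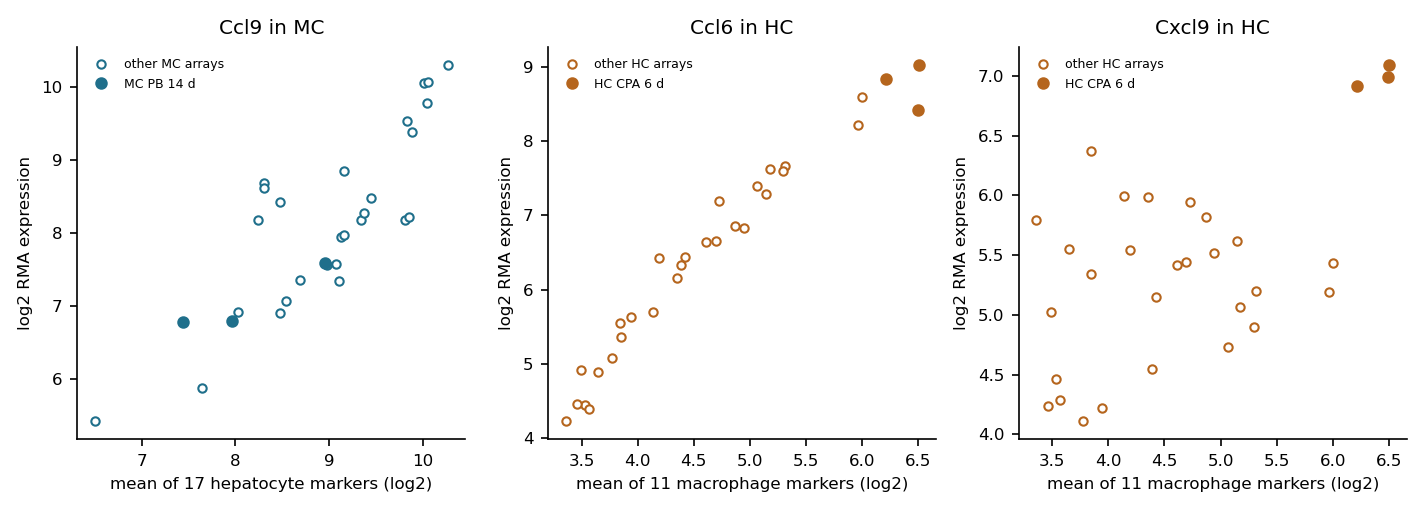
Level of 1 member (vertical, log2) against the mean of cell type markers (horizontal, log2) over the 30 arrays of a fraction, with the treated group named in each panel filled. Ccl9 in MC and Ccl6 in HC lie along the marker mean. The 3 Cxcl9 values of HC CPA 6 d (6.91 to 7.09) lie above every other HC array, and so do the macrophage marker means of these 3 arrays (6.22 to 6.51).

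In mesenchymal cells Cxcl12 fell and Ccl7 rose at 6 d of CPA. These were the 2 of 44 members that passed (4.55% of members, 2.23% of all genes), with a median of 0.01 over members and over all genes. Cxcl12 stood at 9.38, 8.10 and 9.02 in corn oil and at 5.25, 5.21 and 6.88 under CPA, a fall of 3.05 (SE 0.49, adjusted p = 0.000261, 8.29-fold). Every CPA array lay below every control. The second brightest probe set of Cxcl12 fell by 2.11 (adjusted p = 0.0379), and the dimmest stood at -1.18 (adjusted p = 0.843). Ccl7, a monocyte attractant and the neighbour of Ccl2, stood at 2.67, 2.53 and 2.72 in corn oil and at 4.23, 4.30 and 4.15 under CPA, a rise of 1.59 (SE 0.30, adjusted p = 0.00192, 3.01-fold). With the near-identical CPA replicates averaged, Cxcl12 stood at -2.78 (adjusted p = 0.00462) and Ccl7 at 1.57 (adjusted p = 0.0148), and both calls also held without any 1 of the 6 arrays.

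Further members differed by at least 1 without overlap and did not pass at 6 d in MC. Ccl2 stood at 6.49, 6.14 and 4.85 in corn oil and at 7.78, 7.92 and 7.43 under CPA (1.88, adjusted p = 0.213). Ccr1, a receptor of Ccl3, Ccl5, Ccl7 and Ccl9, stood at 3.59, 3.86 and 4.66 and at 5.25, 5.02 and 5.61 (1.26, adjusted p = 0.0509). Ccl4 (1.28, adjusted p = 0.313) and Ccl9 (1.17, adjusted p = 0.714) were the others. With the near-identical arrays averaged, Ccl2 stood at 1.81, Ccr1 at 1.34, Ccl4 at 1.23 and Ccl9 at 1.31, and none passed (adjusted p = 0.114 to 0.835). Of all genes, 2.37% differed so. Macrophage markers in MC had a mean of 10.53 ± 0.24 under CPA and 10.76 ± 0.31 in corn oil, and none of the 11 passed. Of 14 stellate markers, Lrat fell (-1.62), and Epcam (1.77) and Spp1 (1.37) rose among 6 cholangiocyte markers, where 2.23% of all genes passed. The part of these markers in the MC results was not tested.

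At 24 h of CPA in MC, 1 of 44 members passed (2.27% of members, 2.54% of all genes). Ccl17 stood at 3.98, 4.20, 4.14, 4.31 and 4.16 in corn oil and at 5.23, 6.27 and 4.65 under CPA, a rise of 1.23 (SE 0.24, adjusted p = 0.00579). The 3 CPA arrays lay above all 5 controls, but the call was lost without CPA replicate 2 (0.78) and with only the arrays of the comparison in the fit (adjusted p = 0.306). The CO_Co corn oil arrays of MC stood at 4.43 to 4.64 and the 6 d controls at 4.24 to 5.01. Cxcl12 stood at -0.80 in MC at this time and did not pass (adjusted p = 0.565 over all probe sets).

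The fractions responded differently to CPA in 4 members by the test of the difference of effects (HC minus MC). Of all genes, 8.43% passed this test at 24 h and 4.58% at 6 d. At 24 h it was Ccl17 (-1.49, SE 0.30, adjusted p = 0.000646), which stood at -0.27 in HC and rose in MC. At 6 d Cxcl14 (-2.02, adjusted p = 0.00647) fell in HC and stood at -0.29 in MC, and Ccl7 (-1.91, adjusted p = 0.000719) rose in MC and stood at -0.32 in HC. Both calls held with the near-identical arrays averaged (adjusted p = 0.0182 and 0.00313). The fall of Cxcl14 in HC was not seen in its second probe set, as given above. Its corn oil 6 d group also had the highest mean of the HC vehicle groups (4.91). Cxcl9 rose in HC and stood at -0.22 in MC (1.88, adjusted p = 0.0474), a call lost with each array centred on its median (adjusted p = 0.0527), with the near-identical arrays averaged (1.81, adjusted p = 0.105) and without any 1 of 9 of the 12 arrays (1.66 to 2.02 over all left out). Cxcl12 at 6 d fell in both fractions, by 2.73 and 3.05, and their difference did not pass.

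No member passed in hepatocytes under PB by limma at either time. At 24 h, 0 of 44 members passed, 3 at an unadjusted p under 0.05, where 0.0774% of all genes passed. At 14 d, 0 of 44 passed, 1 at an unadjusted p under 0.05, where 0.0633% of all genes passed. That member was Ccl9, which stood at 11.17, 11.31 and 11.11 in water and at 10.80, 10.62 and 10.81 under PB, a difference of -0.45 without overlap (SE 0.11, adjusted p = 0.0869). Without water replicate 3, 1 member passed.

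In mesenchymal cells at 24 h of PB no member passed either (0 of 44, 2 at an unadjusted p under 0.05, and 0% of all genes). Ccl7 stood at 2.48, 2.67 and 2.58 in water and at 3.63, 4.42 and 3.25 under PB (1.19, adjusted p = 0.835). Ackr3 stood at 6.75, 6.67 and 8.05 and at 8.34, 8.21 and 8.36 (1.14, adjusted p = 0.999). With the near-identical water arrays averaged, Ccl7 stood at 1.19 and Ackr3 at 0.92. Both had no overlap between groups, as had 0.457% of all genes with a difference of at least 1. Cxcl1 and Cxcl2 had larger differences with overlap (1.63 and 1.47), since water replicate 3 stood at 10.64 and 11.06 beside 8.35 to 9.10 in the near-identical replicates 1 and 2, and they were fitted with all 3 water arrays.

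At 14 d of PB in MC, 3 of 44 members passed, all lower (6.82% of members, where 18.4% of all genes passed and 9.02% as lower). Ccl9 stood at 10.07, 9.78 and 9.39 in water and at 6.80, 7.59 and 6.79 under PB, a fall of 2.68 (SE 0.75, adjusted p = 0.0191, 6.43-fold). Cxcl11 stood at 6.79, 6.79 and 6.64 and at 5.10, 4.75 and 6.21, a fall of 1.39 (SE 0.45, adjusted p = 0.0349). Ccl27 fell by 0.68 (adjusted p = 0.0422) with overlapping arrays (2.28 to 3.67 in water, 2.21 to 2.35 under PB). These are members that are higher in HC. The dimmer probe set of Ccl22 rose by 1.02 (adjusted p = 0.0133 over all probe sets), and its effect differed between fractions (-1.20, adjusted p = 0.0148), where the one used stood at 0.27 (adjusted p = 0.636). Hepatocyte markers were lower in the same PB arrays: their mean was 8.12 ± 0.77 under PB and 9.99 ± 0.10 in water, and 7 of 17 passed as lower. With that mean as a covariate none of the 44 members passed (Ccl9 -0.71, adjusted p = 0.319, and Cxcl11 -0.70, adjusted p = 0.422). The mean ran from 7.45 to 8.96 under PB and from 9.89 to 10.06 in water, without overlap. Less hepatocyte RNA and an effect of PB on these members therefore cannot be told apart. The PB effect on Cxcl11 differed between fractions (HC minus MC 1.55, SE 0.47, adjusted p = 0.0292; 10.1% of all genes passed), a call lost without any 1 of 6 of the 12 arrays (1.25 to 1.98 over all left out). The fall of Ccl9 in MC lost its call without water replicate 1 or PB replicate 1 (-2.95 to -2.52 over all left out), that of Cxcl11 without any array but PB replicate 3 and that of Ccl27 without any but water replicate 3. Ccl27 also lost its call with only the arrays of the comparison in the fit (adjusted p = 0.199). Without any 1 of the 3 water arrays or PB replicate 1 the count changed by more than 1.5 times, and it ran from 0 to 10 members.

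Same-numbered arrays of water and PB at 14 d deviated together in MC, though the labels do not call them pairs. With the replicate number as a block 12 members passed, 8 higher and 4 lower (32.6% of all genes, not split by direction). Cxcl1 stood at 4.03, 4.25 and 9.20 in water replicates 1 to 3 and at 7.29, 6.02 and 9.33 under PB, a rise of 1.72 with the block (SE 0.48, adjusted p = 0.0155) that was not called without it (adjusted p = 0.265). Cxcl2 stood at 6.15, 6.19 and 9.97 and at 8.83, 8.78 and 10.26 (1.85, adjusted p = 0.0264 with the block). In both, replicate 3 was the highest of its group and each PB array exceeded the water array of its number. Ackr3 (adjusted p = 0.00356 with the block), Cxcl9 (adjusted p = 0.0224), Ccl2 (difference of 1.39), Ccl3 (1.33), Ccl24 (0.99) and Ccl6 (0.51) passed as higher with the block as well. Ccl19 (-0.37) joined Ccl9, Cxcl11 and Ccl27 among those that passed as lower. Without the block, Ccl19 and the 8 members that passed as higher with it did not pass (adjusted p = 0.0645 to 0.265). Over MC vehicle groups, water at 14 d had the lowest mean of Cxcl1 (5.83, against 8.49 to 9.22 in the other groups), Cxcl2 (7.44) and Ccl3 (7.54). The macrophage marker mean in MC at 14 d was 10.68 ± 0.08 under PB and 9.93 ± 0.42 in water, and 4 of 11 passed without the block. The sinusoidal endothelial marker mean was 9.10 ± 0.09 under PB and 8.39 ± 0.06 in water, and 2 of 15 passed without the block. In that fit 18.4% of all genes passed, so the endothelial count was not above the share of all genes. The part of either list in these rises was not tested.

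**Figure D4:**
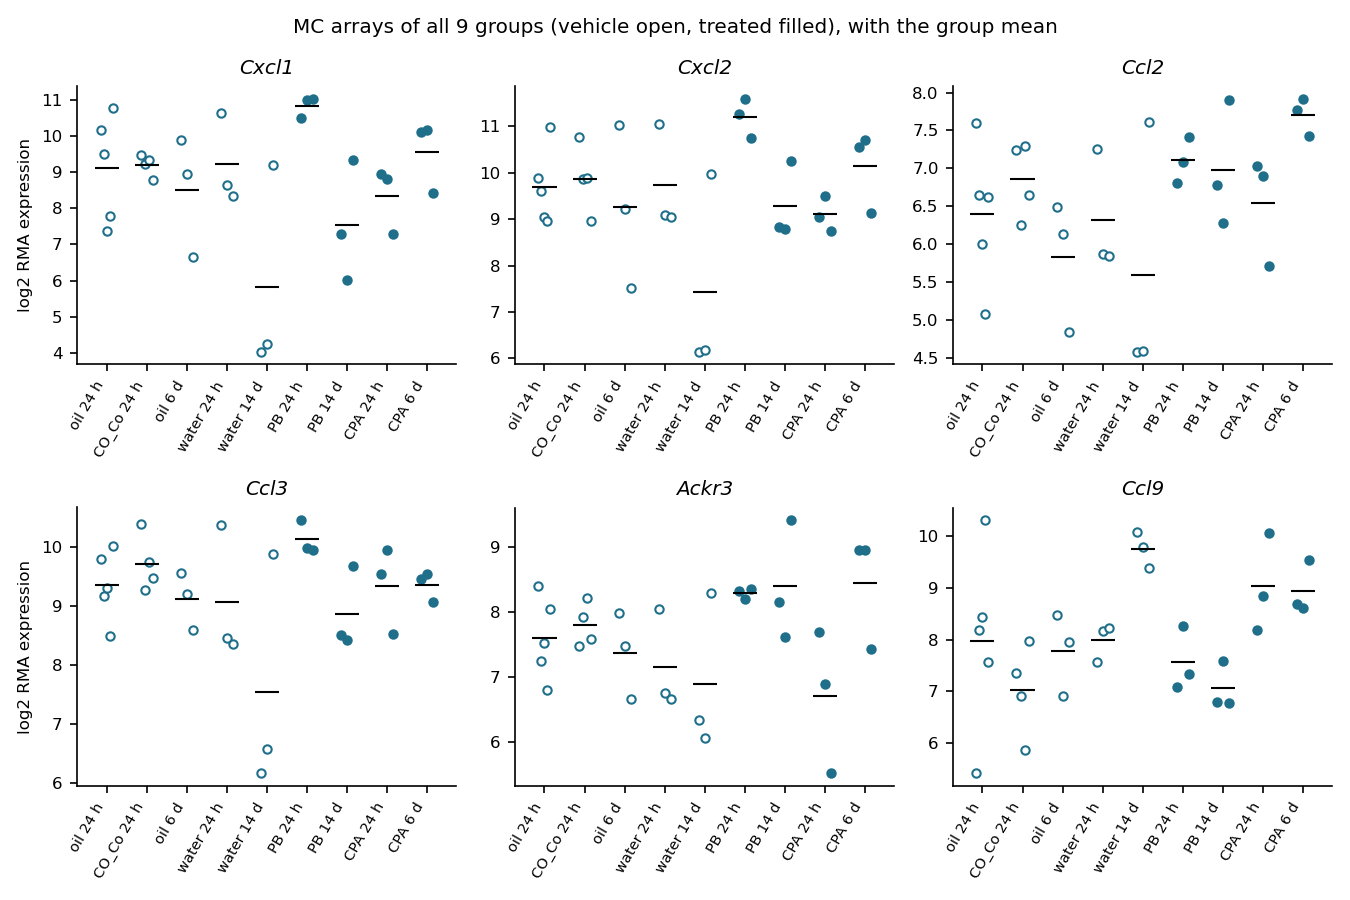
Single-array log2 levels of 6 members in all 9 MC groups, vehicle open and treated filled, with the group mean as a line; each panel has its own vertical scale. Cxcl1, Cxcl2, Ccl2, Ccl3 and Ackr3 share 2 low arrays in the water 14 d group, and Ccl9 has its highest group mean there (9.74).

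**Figure D5:**
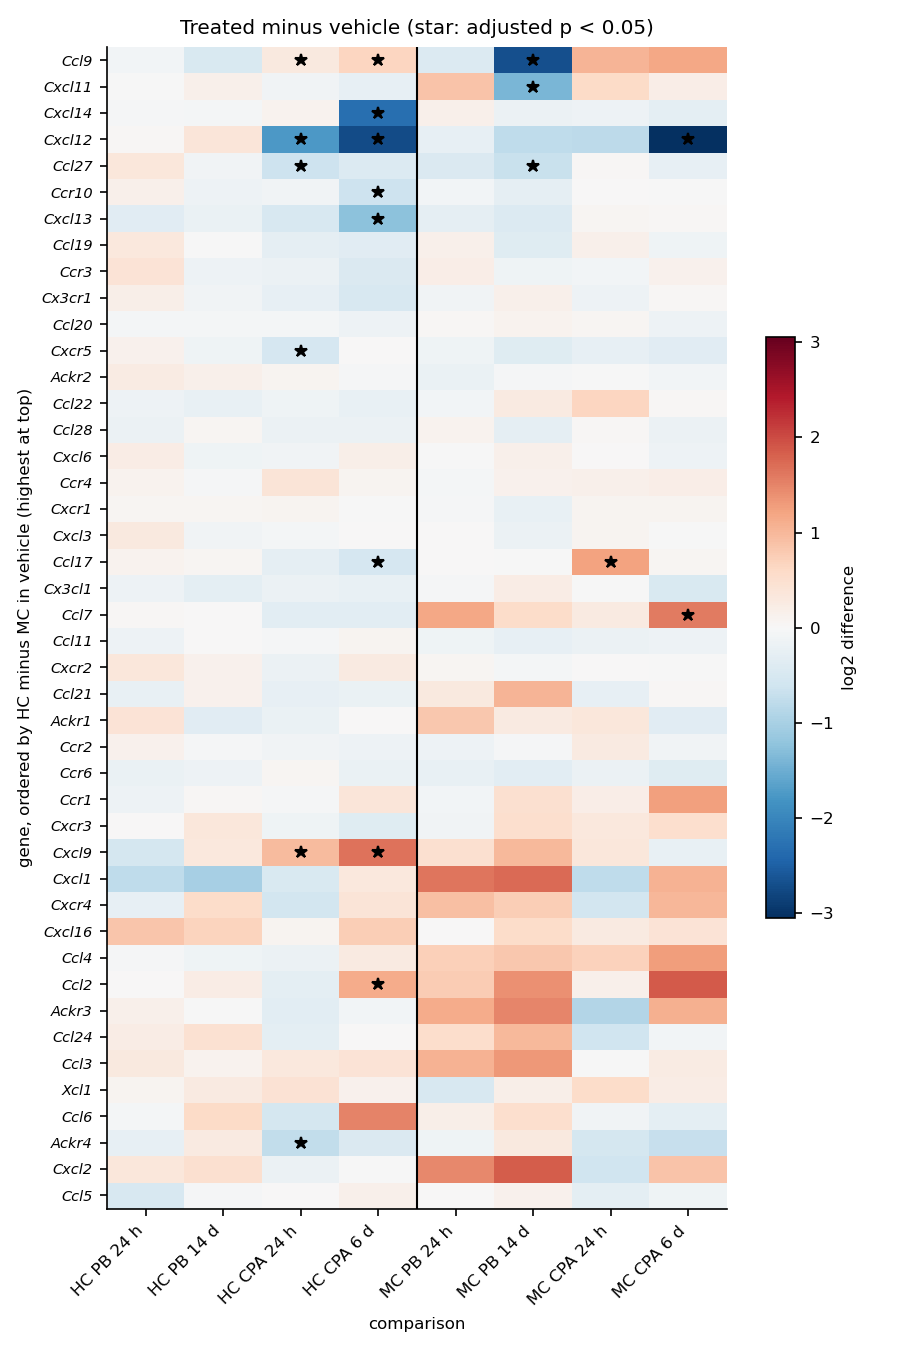
Treated minus vehicle (log2, colour) of the 44 genes in the 8 comparisons, HC on the left and MC on the right of the line, with a star where the adjusted p was under 0.05. Stars lie on Cxcl12 in 3 of the 4 CPA columns and on none of the 44 in the PB columns of HC or in MC PB 24 h.

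Other genes of the pathway came from lists on receptor signalling, inducers, adhesion and processing. Macrophage markers had a median change of 1.34 in HC at 6 d of CPA and 0.76 in MC at 14 d of PB. The part of cell type markers in the changes of these lists was not tested. Of 19 measured genes of receptor signalling, 3 rose and 3 fell in HC at 24 h of CPA, and 6 rose and 1 fell at 6 d (median 0.32 against -0.01 over all genes). Of all genes, 34.2% passed at 24 h and 24.2% at 6 d, against 6 of 19 and 7 of 19 here. Rgs16, which shortens G protein signals, fell at both times (-1.53, adjusted p = 0.0443, and -2.66, adjusted p = 0.00323), and the G protein subunits Gnai2 (1.67) and Gnb1 (0.97) and the leukocyte GTPase Rac2 (1.05) rose at 6 d. In MC 4 rose at 14 d of PB (18.4% of all genes passed), among them Rgs2 (1.43) and Rac2 (0.83), and 0 passed under CPA at either time.

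Among 24 measured inducers of chemokines and their signalling genes, 3 rose and 2 fell in HC at 24 h of CPA and 4 rose and 4 fell at 6 d, 5 of 24 and 8 of 24 against 34.2% and 24.2% of all genes. The interleukin-1 receptor Il1r1 fell at both times (-1.33, adjusted p = 6.33e-07, and -1.55, adjusted p = 5.76e-07). The interferon regulatory factor Irf7 (1.43) and the TNF receptor Tnfrsf1a (0.88) rose at 24 h. At 6 d the NF-kappaB feedback genes Tnfaip3 (1.71) and Nfkbia (0.84) rose while Nfkbiz, an NF-kappaB cofactor, fell (-2.14, adjusted p = 4.33e-05). In MC 5 of 24 rose at 14 d of PB (18.4% of all genes passed), led by Tnf (1.84, adjusted p = 0.0188), and 0 passed under CPA.

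Of 14 measured adhesion genes, 1 rose in HC at 24 h of CPA and 2 at 6 d, where 34.2% and 24.2% of all genes passed. Icam1, the endothelial and hepatocyte ligand of leukocyte integrins, rose at both times (1.21, adjusted p = 5.54e-05, and 1.17, adjusted p = 0.00051), and Vcam1 at 6 d (1.43, adjusted p = 0.000524). In MC Icam2 rose at 14 d of PB (0.73, where 18.4% of all genes passed). Of 16 genes of processing and clearance, 3 rose and 2 fell in HC at 24 h of CPA, and 4 rose and 1 fell at 6 d. Dpp4, the peptidase that cuts Cxcl12 and other ligands, fell at 24 h (-1.16, adjusted p = 4.86e-05), as did Rarres2 (-0.63). Cklf (0.80), Sdc1 (0.45) and Adam17 (0.45) rose at that time. In MC 1 of the 16 rose at 24 h of CPA, Sdc1 (1.52, where 2.54% of all genes passed), and 2 rose at 6 d (2.23% of all genes). Mmp12, a macrophage elastase that also cuts chemokines, rose by 4.15 in MC at 6 d of CPA (SE 0.46, adjusted p = 1.18e-06), from 3.80 to 7.95, and by 1.20 in HC. Pf4, a CXC chemokine of platelets outside the naming rule, rose by 1.20 in MC and 1.16 in HC at 6 d. Mmp12 and Pf4 were fitted in MC with both near-identical arrays.

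The CO_Co corn oil arrays were compared with the other corn oil arrays at 24 h, and no member passed by limma (0 of 44 in HC, 2 at an unadjusted p under 0.05, where 0.0703% of all genes passed; 0 of 44 in MC, 3 at an unadjusted p under 0.05, where 0% passed). The same held between times in MC under CPA (0 of 44, 6 at an unadjusted p under 0.05, 0.506% of all genes) and PB (0 of 44, 4 unadjusted, 0.00703%), between times in HC under PB (0 of 44, 2 unadjusted, 0.0352%), and between fractions at 24 h of PB (0 of 44, 2 unadjusted, 0%). With the replicate block, 0 members passed in HC at 14 d of PB, where 0.246% of all genes did.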

How the data were processed

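RNA of hepatocytes and mesenchymal cells (250 ng) was measured on 60 arrays. Per the submitters' processing notes, RMA was used, and the deposited values are on the log2 scale. RMA corrects background, normalises arrays to each other and summarises probes, so levels are relative and low values are compressed. Its version is not given in the sources used here; precision is limited by how many arrays a group has. Of 31042 probe sets, 20826 had 1 gene symbol, 436 several and 9780 none. The probe set with the highest mean stood for each symbol (14217 genes), and 8 of the 44 members had several (57 in all). All 44 matched RefSeq by identifier. A gene whose symbol fits the naming rule is not reported here.

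Groups follow the labels: PB was set against water, CPA against corn oil. R 4.3.3 with limma 3.58.1 (lmFit, eBayes) fitted 9 group means to the 30 arrays of a fraction, and 18 group means to all 60 arrays for HC against MC and for differences of effects between fractions. Benjamini-Hochberg adjustment ran over 14217 genes, with calls at an adjusted p under 0.05. Log2 differences are given with SE, group levels with SD. In simulated data of these arrays, 87 of 100 genes changed by 1 (log2) were recovered for HC CPA 24 h and 76 of 100 for MC CPA 6 d. The changed genes were drawn at random from all genes, and the noise was independent between arrays. Near-identical arrays were not modelled, and these rates are not those of the members.

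Every member is accounted for by its vehicle levels. Named for a treatment were all called members and, by value, those that differed by at least 1 (log2) without overlap. Members, lists and rules were chosen with earlier results of these data known. Replicate numbers were checked as pairs: deviations of same-numbered treated and vehicle arrays correlated above 0.1 in every pair only for PB 14 d (HC 0.20 to 0.46, MC 0.26 to 0.64 across genes). Same-numbered HC and MC arrays of a group correlated above 0.1 in 21 of 30 pairs (median 0.18, largest 0.46). The main fits between fractions took these arrays as independent, and the replicate block joined them. Motif matches and promoters used RefSeq sequences of GRCr8. Alternatives were a sex term, the replicate block, all probe sets of a gene averaged, a filter at 5 (log2), array weights, median centring, only the arrays compared, both corn oil groups as control, hepatocyte markers as covariate in MC, corn oil, water or non-CO_Co vehicle arrays alone, and left-out arrays; averaging near-identical arrays, the macrophage covariate in HC and single probe sets were added after seeing the data.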

Additional observations from a re-analysis of the deposited data

Results flagged for a closer look

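Of 68 sets of a member and a group of 4 or 5 arrays, 4 held an array far from the rest of its group, where chance gives about 1 in 20. Ackr4 stood at 7.79 in MC corn oil 24 h replicate 5, with the next array at 8.79. Among the CO_Co arrays, Ccl17 stood at 4.64 in MC replicate 3 (next 4.46), Ccl7 at 2.42 in HC replicate 3 (others 2.65 to 2.66) and Cxcr5 at 6.18 in HC replicate 2 (next 6.07).

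The effect of treatment differed between the fractions (HC minus MC) for Cxcl11 under PB at 14 d (1.55), for Ccl17 under CPA at 24 h (-1.49), and for Ccl7 (-1.91), Cxcl14 (-2.02) and Cxcl9 (1.88) under CPA at 6 d. Within HC the effect of CPA at 6 d differed from that at 24 h for Ccl2 (1.43), Cxcl12 (-0.97) and Cxcl14 (-2.40). The limits given above for these calls hold here too.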

How the results depend on the processing

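The term for labelled sex could not change the named differences in this design and tests nothing. Of 35 named results 33 kept their side of the threshold with the replicate block, and 2 more passed. With that block the members called numbered 12 in MC PB 14 d (32.6% of all genes), 3 in MC CPA 24 h, 4 in MC CPA 6 d, 2 for the difference between fractions at PB 14 d and 2 for the difference between times in MC CPA. The share of all genes is not given for the other counts of this section. Those counts show only how far a setting moves them, and not whether members responded more than other genes. With only genes reaching 5 (log2) in a group, 7 members were tested in HC and 21 in MC, and the counts were 1 in HC PB 14 d, 3 in HC CPA 6 d, 1 in MC CPA 6 d, 4 higher in vehicle HC, and 2 and 1 for the fraction differences at PB 14 d and CPA 6 d. Array weights gave 1 in HC PB 14 d, 5 in MC PB 24 h, 10 in MC PB 14 d, 6 in MC CPA 24 h and 10 in MC CPA 6 d. They gave 1, 3, 3 and 10 for the fraction differences at PB 24 h, PB 14 d, CPA 24 h and CPA 6 d, and 5, 5 and 1 for the time differences in HC CPA, MC CPA and MC PB. Centring gave 2 for the fraction difference at PB 14 d, the arrays of the comparison alone gave 0 in MC CPA 24 h (5 of 27 named results lost their call and 1 gained one, Ccl6 in HC CPA 6 d), and the hepatocyte covariate gave 0 in MC PB 14 d and 4 in MC CPA 6 d. Ccl6 in HC CPA 6 d turned to -0.55 with the macrophage covariate. Leaving out 1 array, the counts ran from 3 to 7 in HC CPA 24 h, 5 to 9 in HC CPA 6 d, 0 to 1 in HC PB 14 d, 0 to 10 in MC PB 14 d, 0 to 1 in MC CPA 24 h and 2 to 3 in MC CPA 6 d. For the fraction differences they ran from 0 to 7 at PB 14 d and 2 to 5 at CPA 6 d (5 without HC corn oil 6 d replicate 1), and for the time differences from 2 to 4 in HC CPA and 0 to 1 in MC CPA. Except for the filter and the fits with fewer arrays, the cause was not tested. Most members lie under 5 in HC, where RMA compresses differences.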
